A study of Arabidopsis thaliana with 24 samples.

Results

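The mitochondrial genome genes of Arabidopsis thaliana were followed in dark-grown seedlings that were moved to light and in a mutant that lacks several light-signalling factors. The members were all genes whose identifier starts with ATMG in the 6 deposited tables. This gave 146 of 33557 genes. The same tables held 33278 nuclear and 133 chloroplast genes. Of the 146 members, 41 had a known function (38 parts of protein-coding genes and 3 ribosomal RNAs), 19 were transfer RNAs and 86 were other open reading frames. A transfer RNA that shares its locus with a reading frame was counted among the frames.

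Plant mitochondria keep a genome of their own, which encodes core subunits of the respiratory chain and ATP synthase, some ribosomal proteins, factors that attach heme to c-type cytochromes, and the ribosomal and transfer RNAs needed to translate them. Most other mitochondrial proteins are encoded in the nucleus and imported, so each respiratory complex mixes subunits from both genomes except complex II, which in Arabidopsis is built from nuclear genes alone. Plant mitochondrial transcripts do not carry the stable poly(A) tails of nuclear mRNAs, and an added tail marks such a transcript for decay. In the Columbia accession a large stretch of the mitochondrial genome is also present in chromosome 2, so many members have a nuclear twin.

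The study compared cotyledons with hypocotyls, the seed leaves and the stem below them, during de-etiolation, the change from dark to light growth. All seedlings were germinated for 3 h in white light (70 µmol photons per square metre per second), then given far-red light for 5 min (2 of the same unit) and grown for 4 days in darkness. The light groups were wild type cotyledons and hypocotyls after 1 h or 6 h of the same white light, each set against wild type kept dark. The mutant groups were dark cotyledons and hypocotyls of pifq, 1 line that carries mutations in PIF1, PIF3, PIF4 and PIF5, transcription factors that hold back light responses in darkness, set against dark wild type. There were 8 groups of 3 samples, which the labels call biological repeats, or 24 samples in all. The libraries were made as mRNA libraries, and the labels do not say how mRNA was selected.

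The deposited tables gave 1 value per group in FPKM (fragments per kilobase of transcript, scaled to the size of the library), a log2 fold, a test and a q-value, so the spread between the samples of a group was not shown. Read depth is unknown. Genes were called, and are said to have risen or fallen, where the authors' q-value was under 0.05. Standard errors (SE) of log2 folds were recovered from the authors' test statistic. In the light tables the authors' p-values were, at the median gene, smaller than their statistic gives under a normal reading, though single rows departed from this. A fold of less than 2 SE could be called there, so numbers of calls in light and in the mutant are not set against each other. Among the mutated genes, PIF3 was at 0.623 FPKM in pifq cotyledons against 64.7 in wild type, and at 2.16 in pifq hypocotyls against 37.6. PIF4 rose in pifq, at 45.0 against 15.4 FPKM in wild type cotyledons and 44.9 against 19.3 FPKM in wild type hypocotyls. PIF1 (PIL5 in the tables) passed the test in neither organ, and PIF5 (PIL6) fell only in hypocotyls, at 8.66 FPKM in pifq against 21.5 in wild type. The hypocotyl marker EXPA12 was at 35.1 FPKM in dark hypocotyls and 0.456 in dark cotyledons, and the root marker IRT1 was at 0.614 and 0 FPKM. The cotyledon marker SAUR17 was at 4.25 FPKM in dark hypocotyls and 139 in dark cotyledons. The other cotyledon markers, CAB1 and RBCS1A, were at 135 and 201 FPKM in dark hypocotyls. Both were listed at 0 in dark cotyledons, with the status HIDATA in place of a test. In the same HIDATA row CAB1 was at 8431 FPKM after 1 h of light. These values of 0 therefore cannot be read as absence from cotyledons. A further root marker, PHT1;1, was at 3.88 FPKM in dark hypocotyls and 0.00794 in dark cotyledons. After 1 h of light in hypocotyls, IRT1 rose to 1.83 and PHT1;1 to 7.79 FPKM. At 6 h PHT1;1 fell to 1.62 FPKM and IRT1 was not called.

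Most members were at or near 0. The 19 members counted as transfer RNAs were listed at 0 in every one of the 10 distinct group values. In all, 27 members were never above 0, and 63 of 146 reached 1 FPKM in at least 1 group. The locus that holds ORF199 and the transfer RNA gene trnC was counted with the reading frames. Of its identifiers, ATMG00360 was at 129 FPKM in the wild type hypocotyls set against pifq and at 0 in the other 9 group values. The median member lay between 0 and 0.493 FPKM. Ribosomal RNA carried most of the signal. rrn18, rrn26 and rrn5, the RNAs of the mitochondrial ribosome, together made up 70.4% to 84.8% of all FPKM of the members. With the reading frame ORF107A added, the share was 89.6% to 96.9%.

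The member of highest median level was rrn18 (ATMG01390, mitochondrial positions 361350 to 363284 in TAIR10), with a median of 1897 FPKM over the 10 group values and a range of 1009 to 3453 FPKM. rrn5 (ATMG01380) followed at a median of 1071 FPKM, but its locus is only 118 bases long, and it was listed at 0 in pifq hypocotyls. rrn26 (ATMG00020, the RNA of the large subunit) had a median of 600 FPKM, at 1601 FPKM in dark hypocotyls and 272 FPKM in dark cotyledons. The organs were scaled in separate tables, so these levels stand side by side and were not tested against each other.

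ORF107A (ATMG00030, positions 11918 to 12241, 324 bases) reached a median of 910 FPKM. It sits beside rrn26: in the RefSeq mitochondrial sequence 185 of its bases are covered by rrn26 on the opposite strand. Whether the counting used strand is not given in the sources used here, so reads of ORF107A and of rrn26 cannot be told apart over these bases. The stretch below is the start of ORF107A in RefSeq, at positions 143781 to 144020 on the plus strand of the Columbia mitochondrial sequence, which is numbered differently from TAIR10. It is shown because this short frame outweighs every protein-coding member, and capitals mark the bases that rrn26 also covers.
ORF107A: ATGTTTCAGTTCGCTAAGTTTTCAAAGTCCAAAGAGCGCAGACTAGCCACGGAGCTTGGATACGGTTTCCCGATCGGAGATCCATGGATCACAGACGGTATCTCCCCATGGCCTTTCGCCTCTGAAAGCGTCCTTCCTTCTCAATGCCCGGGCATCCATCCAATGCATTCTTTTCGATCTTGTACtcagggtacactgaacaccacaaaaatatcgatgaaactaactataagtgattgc
By median over all group values, the next reading frame after ORF107A was ORF106F (ATMG01130), at 11.9 FPKM. ORF111D (ATMG01370), which ends 9 bases from rrn5, had a median of 6.20 FPKM.

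**Figure D1:**
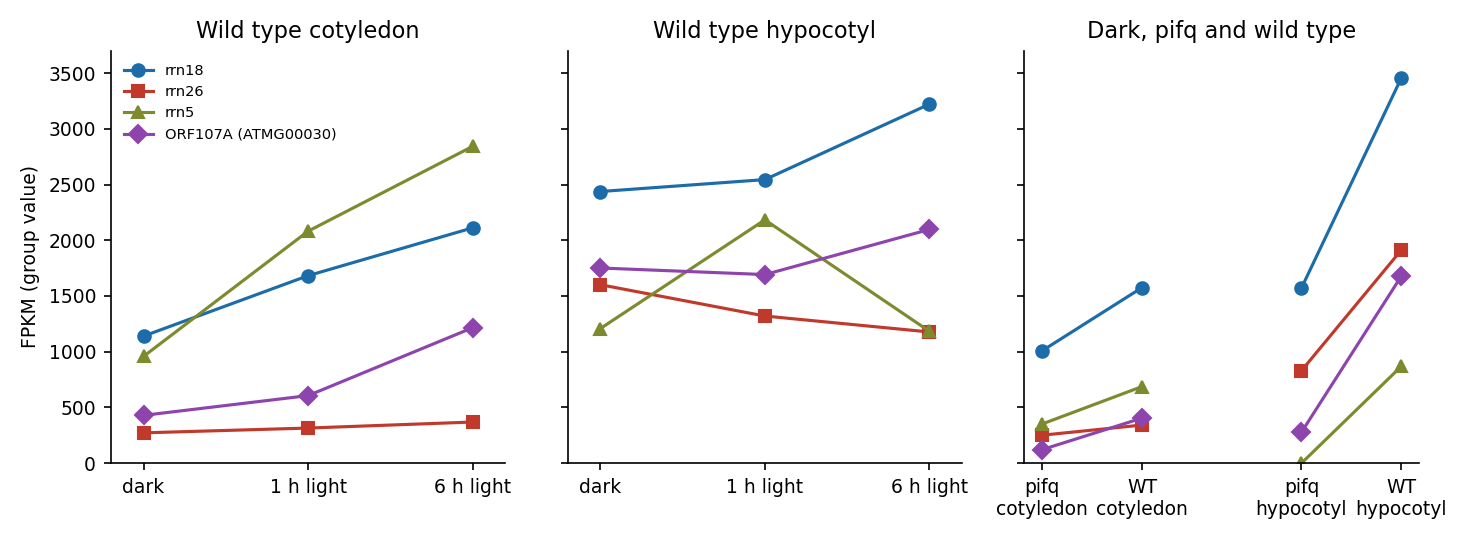
Group FPKM of the 3 mitochondrial ribosomal RNAs and of ORF107A (linear y axis) in wild type cotyledons and hypocotyls kept dark or moved to light for 1 h or 6 h, and in dark pifq beside dark wild type; each point is 1 value that the authors computed from 3 samples, so no error bars can be drawn. ORF107A is at 1215 FPKM after 6 h in cotyledons against 429 in darkness, and all 4 are lower in pifq than in wild type in both organs.

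The protein-coding members were far below the ribosomal RNAs. By median over all group values, the highest were 2 parts of the trans-spliced gene for NAD1, a membrane subunit of complex I. They were ATMG01120 at 35.4 FPKM and ATMG00516 at 28.0 FPKM. Next came atp4 (ATMG00640, a stator subunit of ATP synthase) at 23.6 FPKM, ATMG00080 of the rps3 and rpl16 locus (ribosomal proteins) at 21.8 FPKM, and nad5 (ATMG00060) at 19.1 FPKM. This order depends on the light tables, which list many members at or near 0. In the wild type of the mutant tables, rps12 (ATMG00980) was at 34.5 FPKM in cotyledons and 46.8 FPKM in hypocotyls. ATMG01120 was at 32.4 and 35.8 FPKM there. The median of rps12 over all group values was only 0.366 FPKM. Cytochrome c oxidase was represented by cox2 at 6.87 FPKM and cox1 at 3.66 FPKM. The cytochrome c maturation gene ccmB had a median of 1.04 FPKM, and mttB, a translocase homologue, one of 0.128 FPKM. Of the members with known function, 9 had a median of 0. The nad5 exon of 22 bases (ATMG00665) was at 0 throughout. The others were at 0 in the light tables and above 0 in the mutant tables, so their median does not show absence. In mutant-table wild type cotyledons, for example, rpl5 (ATMG00210) was at 4.53 FPKM and rps4 (ATMG00290) at 0.763 FPKM.

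Many members have a copy in the nuclear genome. In RefSeq, 70.6% of the 50-base windows of the mitochondrial sequence occur letter for letter in the nuclear genome, and 98.2% of the nuclear matches are on chromosome 2. At least 50% of the windows matched, or a nuclear gene was annotated as the same gene, for 108 members, which are called members with a near copy here. Another 33 had no near copy, and 5 could not be placed. The coding sequences of cob, atp1, rps12 and atp9 had 0 differences from their copies over 1182, 1524, 378 and 225 bases. The first 90 bases of atp9, the ring subunit of ATP synthase, are shown with their nuclear twin because both places carry the same letters, and those of cox1, the catalytic subunit of cytochrome c oxidase, because cox1 has no such twin. The mitochondrial stretches are positions 271096 to 271185 and 116256 to 116345 on the minus strand of the RefSeq mitochondrial sequence, and the nuclear stretch is chr2:3251991-3252080 on the minus strand of TAIR10.1, the RefSeq assembly. No base is in capitals, since the atp9 pair has 0 differences.
atp9, mitochondrion: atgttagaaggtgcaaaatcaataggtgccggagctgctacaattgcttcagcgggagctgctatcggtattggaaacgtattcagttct
atp9, chromosome 2: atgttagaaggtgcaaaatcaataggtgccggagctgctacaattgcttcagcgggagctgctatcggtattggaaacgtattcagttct
cox1, mitochondrion: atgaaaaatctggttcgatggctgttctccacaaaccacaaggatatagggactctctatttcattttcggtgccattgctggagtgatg

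The light and the mutant tables gave different values for many members with a near copy. How reads with several matches were handled is not given, and the reason was not tested. The mutant tables head their reference group Col, which was taken here as the dark wild type of the labels. On that reading dark wild type of each organ appears in both kinds of table, and over nuclear genes above 5 FPKM both values lay close together. On the log2 scale, the wild type value of the mutant tables exceeded the light-table dark value by a median of 0.09 in cotyledons (SD over genes 0.18, 12239 genes) and 0.08 in hypocotyls (SD 0.19, 12548 genes). Members without a near copy behaved likewise: of those at 1 FPKM or more in the mutant-table wild type, 18 of 18 in cotyledons and 20 of 20 in hypocotyls were within 2-fold of the light-table value. Of the members with a near copy, 14 of 29 in cotyledons and 16 of 34 in hypocotyls were under 0.1 FPKM in the light tables. The gene for the alpha subunit of ATP synthase, atp1 (ATMG01190), was at 10.7 FPKM in the wild type cotyledons of the mutant table and 0.00886 FPKM in dark cotyledons of the light tables. rps12 (ATMG00980), for a small-subunit ribosomal protein, was at 34.5 and 0 FPKM, and atp8 (ATMG00480) at 4.84 and 0 FPKM.

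In the mutant tables several members had nearly the value of their nuclear twin. In wild type cotyledons rps12 was at 34.5 FPKM and AT2G07675 at 35.4, atp8 at 4.84 and AT2G07707 at 4.98, and rpl5 at 4.53 and AT2G07725 at 4.34 FPKM. Reads from the mitochondrion and from chromosome 2 cannot be told apart in such pairs. The light tables list these members at or near 0 and give no light response for them. Repeated frames within the mitochondrial genome had the same values to the last digit: ATMG00170 and ATMG00620, ATMG00430 and ATMG01150, and ATMG00440 and ATMG01140.

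**Figure D2:**
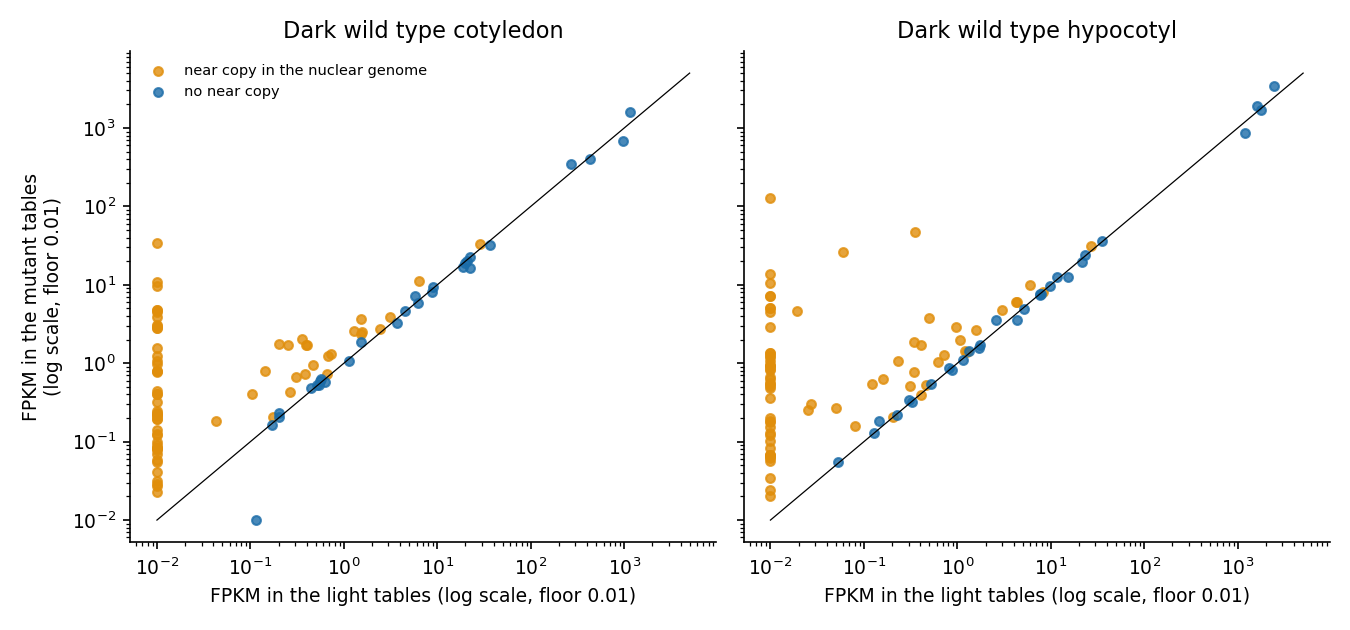
FPKM of members in dark wild type as given by the mutant tables (y axis) against the light tables (x axis), both on log scales with values under 0.01 drawn at 0.01; each point is 1 member, split by near copy in the nuclear genome, and the line marks equal values. Members without a near copy at 1 FPKM or more lie within 2-fold of the line, whereas 14 of 29 such members with a near copy in cotyledons and 16 of 34 in hypocotyls lie at the left edge or close to it, under 0.1 FPKM.

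In cotyledons after 1 h of light, the authors' test called 0 of 37 tested members, where 19.1% of all tested genes were called (10.6% risen and 8.45% fallen). ORF107A was the 1 member with an unadjusted p under 0.05, at 606 FPKM in light against 429 FPKM in darkness (log2 fold 0.50, SE 0.39). Its q-value in the authors' deposited table was 0.0936. The direction was nevertheless mostly upward: 31 members were higher and 6 lower, with a median log2 fold of 0.43, against 0.03 over tested nuclear genes. All 10 tested complex I members were higher in light (median 0.37, 0 called, 0 with an unadjusted p under 0.05), and the other 4 were at 0 in both groups. Among the 10 was nad5 ATMG00060 at 28.1 FPKM in light against 18.9 in darkness. The 3 ribosomal RNAs were higher as well, with rrn18 at 1682 FPKM against 1140 FPKM and rrn5 at 2081 FPKM against 958 FPKM. The median SE was 0.87 for members and 0.43 for nuclear genes.

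In cotyledons after 6 h, 2 of 35 tested members rose and 0 fell (5.71%), where 43.8% of all tested genes were called (24.0% risen and 19.8% fallen). Both that rose belong to the ribosomal RNA regions. ORF107A reached 1215 FPKM in light against 429 FPKM in darkness (log2 fold 1.50, SE 0.39), with a q-value of 0.000332 in the authors' deposited table. rrn18 was at 2111 FPKM in light against 1140 FPKM in darkness (log2 fold 0.89, SE 0.56, q-value 0.0374 in the authors' deposited table). Neither of the other ribosomal RNAs passed the test: rrn5 was at 2842 FPKM against 958 FPKM and rrn26 at 369 FPKM against 272 FPKM. The sum over the members was 6813 FPKM in light against 3037 FPKM in darkness, or 0.463% against 0.271% of all FPKM in the table.

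Outside these regions more members were lower than higher, with 0 called. Of the 35 tested, 15 were higher and 20 lower, with a median log2 fold of -0.06 beside 0.03 over nuclear genes. Leaving out ORF107A and the 3 ribosomal RNAs, which were all higher, 11 were higher and 20 lower, with a median of -0.11. Among complex I members 8 of 10 were lower, with a median of -0.24. cox1 was at 2.37 FPKM in light against 3.71 in darkness (log2 fold -0.65, SE 0.57), while atp4 was at 27.9 against 19.8 (0.50, SE 0.49). The row AT2G07732, the chromosome 2 twin of the reading frame ATMG00280, rose to 53.5 FPKM after 6 h against 27.8 in darkness. ATMG00280 itself was at 3.36 FPKM after 6 h and 0 in darkness, so this row does not stand for the member. The cytosolic 5.8S ribosomal RNA row AT2G01020 was at 308 FPKM after 6 h and 742 FPKM after 1 h, against 512 FPKM in dark cotyledons, and was called at neither time. It was picked after its values were seen. Its part in the ribosomal RNA results was not tested.

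In hypocotyls the authors' test called 0 of 42 members at 1 h, where 15.2% of all tested genes were called (10.0% risen and 5.14% fallen). At 6 h it called 0 of 42, where 39.3% of all were called (17.3% risen and 22.0% fallen). At both times 0 members had an unadjusted p under 0.05. Higher and lower members were 24 and 18 at 1 h and 21 and 21 at 6 h. The median log2 folds were 0.07 and 0.00, against 0.04 and -0.13 over nuclear genes. rrn18 was at 2544 FPKM after 1 h and 3221 FPKM after 6 h, against 2437 FPKM in darkness. rrn26 was at 1320 and 1177 FPKM, against 1601 FPKM in darkness (log2 folds -0.28, SE 0.53, and -0.44, SE 0.52). ORF107A was at 1692 and 2097 FPKM, against 1751 FPKM in darkness. None of these 6 folds exceeded its SE. Among single members the largest fold at either time was that of the low reading frame ORF122C (ATMG00680), at 2.10 FPKM after 6 h against 0.224 FPKM in darkness (log2 fold 3.23), picked here after its values were seen. Its p-value was 0.146 and its q-value 0.302 in the authors' deposited table. The statistic deposited for this row is larger than that p-value allows under a normal reading, so no SE is given. The median SE of a member was 0.91 at 1 h and 0.81 at 6 h, against 0.44 for nuclear genes at both times.

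**Figure D3:**
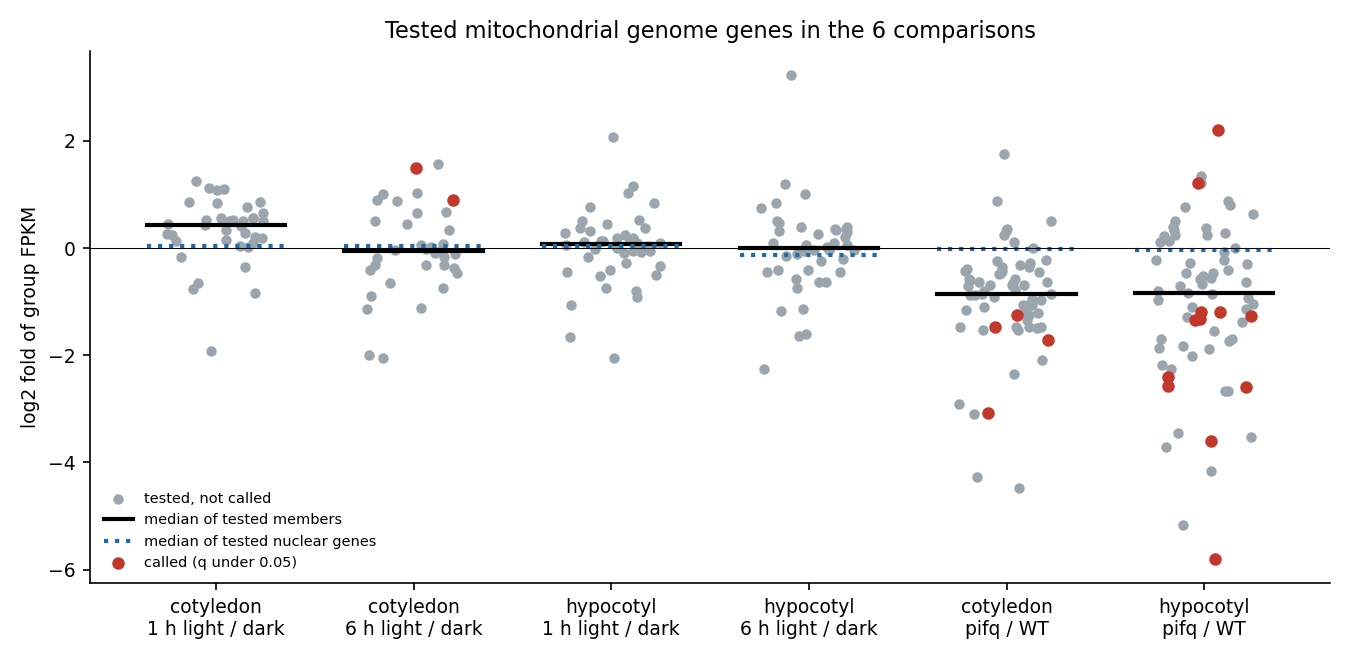
Log2 folds of every tested member with a value above 0 in both groups in the 6 comparisons (y axis), with members called at a q-value under 0.05 in red, the members' median as a black line and the nuclear median as a dotted line; points are spread sideways for legibility. The medians stay within 0.43 of 0 in the light comparisons and lie at -0.85 and -0.84 in pifq cotyledons and hypocotyls.

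In dark pifq cotyledons, 4 of 69 tested members fell and 0 rose (5.8%), where 10.4% of all tested genes were called (4.79% risen and 5.66% fallen). Those that fell were ORF107A and 3 genes of complex I, which passes electrons from NADH to ubiquinone. nad5 ATMG00513, a part of the trans-spliced gene for a proton-pumping subunit, was at 0.462 FPKM in pifq against 3.92 FPKM in wild type (log2 fold -3.08, SE 0.59, q-value 9.11e-06 in the authors' deposited table). nad7 (ATMG00510), for a subunit of the peripheral arm, was at 4.71 FPKM against 11.2 FPKM (-1.25, SE 0.40). nad4 (ATMG00580), for another proton-pumping subunit, was at 1.34 FPKM against 3.71 FPKM (-1.47, SE 0.50). ORF107A was at 122 FPKM in pifq against 404 FPKM in wild type (-1.72, SE 0.39, q-value 0.000263 in the authors' deposited table). All 3 complex I genes have a near copy in the nuclear genome, and ORF107A has none.

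Lower values in pifq cotyledons went well beyond the called members. Of the 69 tested, 59 were lower and 10 higher, and the median log2 fold of the 65 with a value in both groups was -0.85, against -0.02 over nuclear genes. A member was tested when either group had enough signal, so these counts are not over all 146. The median was -0.30 over all 146 with a pseudocount of 0.1 FPKM and -0.10 with one of 1 FPKM. It was -0.26 when pifq was set against the dark value of the light tables. That last median is not over the same members: those at 0 in the light tables drop out, and many others with a near copy are near 0 there. By unadjusted p under 0.05, 14 members were lower and 0 higher. Members without a near copy had a median of -0.78 (19 of 22 lower) and members with one a median of -0.85 (38 of 43 lower). All 13 tested complex I members were lower (median -1.36), as were all 6 of ATP synthase (median -0.74, 0 called, 2 with an unadjusted p under 0.05) and all 4 of complexes III and IV (median -0.75, 0 called, 0 with an unadjusted p under 0.05). The 7 ribosomal protein members had a median of -0.24 with 4 lower and 3 higher.

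In dark pifq hypocotyls, 11 of 81 tested members fell and 2 rose, or 16.0%, where 27.5% of all tested genes were called (13.0% risen and 14.5% fallen). By unadjusted p under 0.05, 20 members were lower and 3 higher in pifq, those called included. ORF107A showed the steadiest fall, at 278 FPKM in pifq against 1676 FPKM in wild type (log2 fold -2.59, SE 0.29), with a q-value listed as 0 in the authors' deposited table. rrn26 beside it was at 830 FPKM in pifq against 1911 FPKM in wild type (-1.20, SE 0.48, q-value 0.0469 in the authors' deposited table). The call of rrn26 was lost when folds were centred on the median nuclear gene. rrn18 (1572 against 3453 FPKM) and rrn5 (0 against 868 FPKM) were lower in pifq hypocotyls too, without passing the test.

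Complex I, with 13 tested members, gave 4 of the 11 members that fell in hypocotyls, where 14.5% of all tested genes fell. nad5 ATMG00513 was at 1.13 FPKM in pifq against 6.01 FPKM in wild type (log2 fold -2.41, SE 0.46), the same member that fell in cotyledons. nad2 (ATMG00285), a part of another trans-spliced gene, was at 0.326 against 1.95 FPKM (-2.58, SE 1.04), a call likewise lost with centred folds. nad4L (ATMG00650), for a small membrane subunit, was at 1.05 FPKM in pifq against 12.7 FPKM in wild type (-3.59, SE 1.43), and the nad1 part ATMG01120 at 0.645 against 35.8 FPKM (-5.80, SE 2.03). The folds of both are large but so are their SEs. In cotyledons both were low in pifq as well without passing the test: nad4L was at 0.833 FPKM against 16.2 FPKM and ATMG01120 was listed at 0 against 32.4 FPKM. Of the complex I members 11 of 13 were lower in pifq hypocotyls, with a median of -1.28. nad9 and nad6 were the 2 exceptions, at 5.79 against 4.92 FPKM and 3.12 against 2.86 FPKM.

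ATP synthase gave 3 members that fell in pifq hypocotyls, where 14.5% of all tested genes fell. Its 6 tested members were all lower (median log2 fold -0.99). atp9 was at 10.3 FPKM in pifq against 26.1 FPKM in wild type (-1.35, SE 0.42), atp4 at 9.70 against 24.2 FPKM (-1.32, SE 0.40) and the proton-channel gene atp6 (ATMG01170) at 1.99 against 4.80 FPKM (-1.27, SE 0.43). The nuclear twin of atp9, AT2G07671, was at 44.6 FPKM in pifq against 48.5 FPKM in wild type. In complexes III and IV the cytochrome b gene cob (ATMG00220) fell to 2.02 FPKM, against 4.59 FPKM in wild type (-1.19, SE 0.46), and its 3 tested partners were lower without passing the test. atp4 has no near copy, while atp9, cob and this atp6 have one. The last member that fell, the reading frame ATMG00370, was listed at 0 in pifq against 1.08 FPKM in wild type. Its nuclear twin AT2G07739 went the other way, at 0.878 FPKM in pifq against 0.399 FPKM in wild type. ATMG00370 shares its locus with ATMG00360, at 0 in pifq against 129 FPKM in wild type, and the authors' counting could split reads between both. In dark wild type hypocotyls of the light tables ATMG00370 was at 0.

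The 2 members that rose in pifq hypocotyls both lie in loci that hold ribosomal protein or nad3 genes. ATMG00090 of the rps3 and rpl16 locus was at 8.23 FPKM in pifq against 3.56 FPKM in wild type (log2 fold 1.21, SE 0.39, q-value 0.0106 in the authors' deposited table). ATMG01000, a frame in the nad3 locus, was at 48.0 against 10.4 FPKM (2.21, SE 0.67). The nad3 member ATMG00990 of the same locus was lower, at 2.97 against 7.19 FPKM (-1.28, SE 1.26), and the locus lists 3 overlapping identifiers whose reads the authors' counting could split. Of the ribosomal protein members 5 of 7 were higher in pifq hypocotyls (median 0.37). rps12 was not among them, at 22.0 FPKM against 46.8 FPKM, and did not pass the test. The 5 cytochrome c maturation members had 0 calls in either organ (1 with an unadjusted p under 0.05 in each), with medians of -0.95 in cotyledons and -0.23 in hypocotyls.

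**Figure D4:**
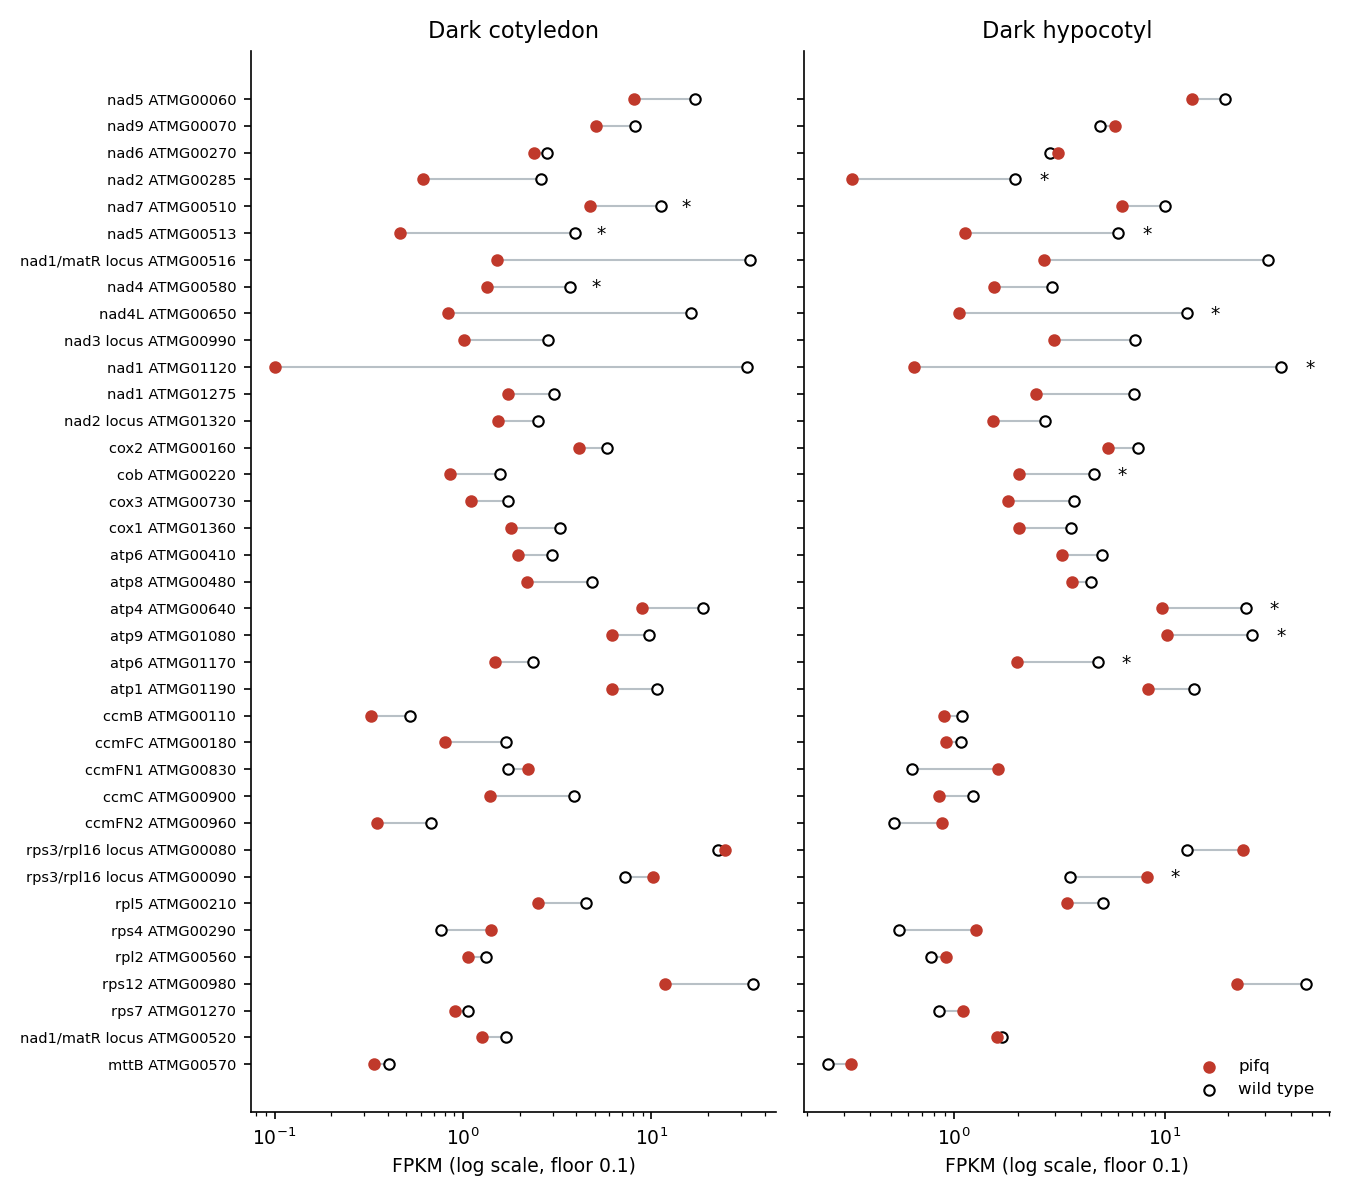
FPKM of the protein-coding members of known function with a value above 0 (log x axis, values under 0.1 drawn at 0.1) in dark pifq (filled) and dark wild type (open), in cotyledons and hypocotyls; each symbol is 1 group value from 3 samples and an asterisk marks a member called at a q-value under 0.05. Complex I, ATP synthase and complexes III and IV lie mostly to the left in pifq, and ATMG00090 of the rps3 and rpl16 locus lies to the right in hypocotyls.

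Over all 81 tested members in hypocotyls, 61 were lower and 20 higher in pifq. The 70 with a value in both groups had a median log2 fold of -0.84, against -0.03 over nuclear genes. Over all 146 it was -0.08 with a pseudocount of 0.1 FPKM and -0.02 with one of 1 FPKM. It was -0.09 against the dark value of the light tables, again without the members at 0 there. Members without a near copy had a median of -0.53 (16 of 23 lower) and those with one a median of -0.93 (35 of 47 lower). The sum over the members was 2922 FPKM in pifq hypocotyls against 8436 FPKM in wild type, and 1902 FPKM in pifq cotyledons against 3356 FPKM in wild type. Without ribosomal RNAs and reading frames, the protein-coding members summed to 159 against 319 FPKM in hypocotyls and 124 against 284 FPKM in cotyledons. In these bulk samples, fewer cells of a type and less RNA per cell cannot be told apart.

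Other quantities moved with the lower values in pifq. The cytosolic 5.8S ribosomal RNA row AT2G01020 was at 45423 FPKM in pifq cotyledons against 81982 FPKM in wild type, where it was not called, and fell in hypocotyls to 11245 FPKM, against 32767 FPKM in wild type (log2 fold -1.54, SE 0.39). The light tables list the same row at 512 FPKM in dark wild type cotyledons and 101 FPKM in dark wild type hypocotyls, so its level differs between the tables far more than that of most nuclear genes. The chloroplast 23S ribosomal RNA row ATCG00950 went the other way in hypocotyls, with 1073 FPKM in pifq against 478 FPKM in wild type. Both rows were picked after their values were seen. Of the 3 cotyledon markers, CAB1 (LHCB1.3) and RBCS1A rose in pifq hypocotyls, to 9029 FPKM against 142 FPKM and to 1830 FPKM against 212 FPKM, and SAUR17 was listed at 0 against 4.35 FPKM. Of the 3 hypocotyl markers EXPA12 fell, at 0.123 FPKM in pifq against 37.3 FPKM in wild type, while SAUR19 (28.3 against 38.4 FPKM) and SAUR23 (16.6 against 28.9 FPKM) did not pass the test. In cotyledons SAUR17 fell to 6.63 FPKM in pifq, against 151 FPKM in wild type. The part of these in the mitochondrial result was not tested.

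Length of the locus moved with it too. Among members and nuclear genes at 1 FPKM or more in the higher group, loci of up to 350 bases had a median log2 fold in pifq cotyledons of -1.72 for 7 members and -0.93 for 63 nuclear genes. In hypocotyls the medians were -2.26 for 7 members and -0.79 for 75 nuclear genes. In cotyledons 23 members on loci longer than 1000 bases had a median of -0.69 (19 lower), against -0.02 over nuclear genes, and in hypocotyls 24 had a median of -0.82 (20 lower), against -0.02. At this length 13.0% of members and 9.93% of nuclear genes were called in cotyledons, and 29.2% and 28.2% in hypocotyls. The shortest class includes nad4L, with 303 bases, and ORF107A, with 324 bases. The part of length in the result was not tested.

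**Figure D5:**
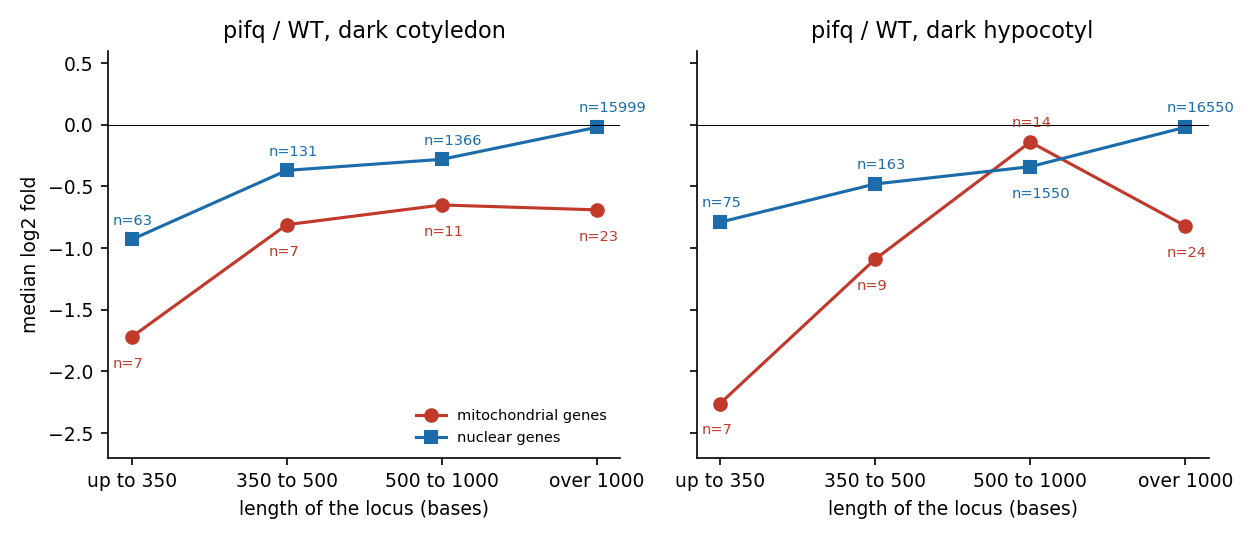
Median log2 fold of pifq over wild type (y axis) by length of the locus in bases (x axis) for mitochondrial and nuclear genes at 1 FPKM or more in the higher group, in dark cotyledons and dark hypocotyls; n is the number of genes behind each point, and no error is drawn because the points are medians over genes. Mitochondrial medians are below nuclear ones in 7 of the 8 pairs, and in hypocotyls between 500 and 1000 bases the members' median is -0.14 and the nuclear one -0.34.

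ORF107A was the 1 member called in opposite directions, risen after 6 h of light in cotyledons and fallen in pifq in both organs, by p-values that relate differently to the statistic in light and mutant tables. Members called in the same direction in 4 or more tables numbered 0. The response of each member was also compared between organs, as the cotyledon log2 fold minus the hypocotyl log2 fold. By a two-sided normal test adjusted by Benjamini-Hochberg over all genes tested in both organs, 0 of 36 members differed at 1 h (background 0.459%), 0 of 34 at 6 h (12.6%) and 0 of 62 in pifq (11.4%). Members with an unadjusted p under 0.05 numbered 0, 1 and 0. The 1 was ORF107A at 6 h, with a difference of 1.24 (SE 0.55, 95% interval 0.17 to 2.31), which did not pass once adjusted. In pifq its difference was 0.87 (SE 0.48, 95% interval -0.08 to 1.82). The median SE of these differences was 1.28 at 1 h, 1.21 at 6 h and 0.99 in pifq. In the light tables these SEs are wider, at the median gene, than the authors' p-values imply. With SE taken from the p-value, 1 member differed at 6 h, so the light counts of 0 depend on the choice of SE.

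The nuclear partners of these genes were read from lists of 59 genes. Of 5 complex II genes, 2 rose at 1 h in both organs and at 6 h in hypocotyls, and 0 were called at 6 h in cotyledons, where 2 had an unadjusted p under 0.05. SDH1-1, the flavoprotein subunit of succinate dehydrogenase, was at 275 FPKM after 6 h in hypocotyls against 54.2 FPKM in darkness, and the iron-sulphur subunit SDH2-1 was at 122 FPKM against 28.2 FPKM. In cotyledons at 1 h SDH1-1 was at 122 FPKM against 38.8 FPKM. Of 9 genes of complex III and cytochrome c, 3 rose at 1 h and 3 at 6 h in cotyledons and 1 and 5 in hypocotyls, with 0 fallen. CYTC-2, a cytochrome c gene, was at 121 FPKM after 1 h in cotyledons against 15.3 FPKM in darkness. Of 20 nuclear genes for mitochondrial transcription and RNA handling, 0 were called at 1 h in either organ (0 with an unadjusted p under 0.05), where 10.6% of all tested genes rose in cotyledons and 10.0% in hypocotyls. At 6 h 7 rose in cotyledons and 8 in hypocotyls, where 24.0% and 17.3% of all tested genes rose. Nuclear ATP synthase gave 1 of 8 risen at 1 h in each organ, and complex IV 1 of 5 risen at 6 h in cotyledons. The RNA helicase gene PMH1 was at 20.0 FPKM after 6 h in cotyledons against 5.82 FPKM in darkness.

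Nuclear complex I genes were evenly split between higher and lower in pifq, and the difference from the mitochondrial ones was not tested. In pifq 10.4% of all tested genes were called in cotyledons and 27.5% in hypocotyls, so few calls in such short lists say little. Of 12 complex I genes listed, 0 were called in pifq cotyledons (1 with an unadjusted p under 0.05) and 1 fell in hypocotyls. Their median log2 folds were 0.01 and -0.01. The 1 was AT5G11770, at 132 FPKM in pifq against 279 FPKM in wild type. The 8 nuclear ATP synthase genes had 0 calls in pifq in either organ (0 with an unadjusted p under 0.05) and medians of 0.09 and 0.15. The 5 nuclear complex IV genes were all lower in pifq in both organs, with medians of -0.36 and -0.23 and 0 calls (0 and 1 with an unadjusted p under 0.05). Complex II had 1 of 5 fallen, SDH3-1 in hypocotyls, at 73.2 FPKM in pifq against 119 FPKM in wild type. The 20 transcription and RNA genes had 0 calls in pifq (1 and 2 with an unadjusted p under 0.05), with medians of 0.06 in cotyledons and 0.28 in hypocotyls. In light, 1 nuclear complex I gene rose at 6 h in cotyledons and 3 did in hypocotyls. Over all tested genes 24.0% rose at 6 h in cotyledons and 17.3% in hypocotyls. Among the 3 was CI51, the NADH-binding subunit, at 240 FPKM after 6 h against 141 FPKM in darkness.

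The 145 rows of the chromosome 2 insertion include the twins of the members. In pifq cotyledons, where 5.66% of all tested genes fell, 45 of 55 tested were lower (median log2 fold -0.75, 1 fell). In hypocotyls, where 13.0% of all tested genes rose and 14.5% fell, 36 of 59 were lower (median -0.32), 2 rose and 2 fell. Of those 4, AT2G07698, the twin of atp1, fell to 7.67 FPKM in pifq against 12.9 FPKM in wild type, and AT2G07687, the twin of cox3, fell to 3.80 against 10.2 FPKM. MCM5 and ABCC13, which rose, are ordinary nuclear genes within the same range. AT2G07732 fell in pifq cotyledons, at 0.111 FPKM against 26.2 FPKM in wild type, the row that rose after 6 h of light. The member ATMG00280 was at 0.000363 FPKM in pifq cotyledons against 0.123 FPKM in wild type.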

How the data were processed

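The tables were read as deposited: 6 comparisons, each with 33557 genes and 1 value per group. Per the submitters' processing notes, TopHat and Cufflinks were used with the TAIR10 build; no version, setting or strandedness is given there. The headers name no unit, so the authors' group values were taken as FPKM from the column layout and the Cufflinks label. The authors' deposited log2 column is the log2 ratio of both groups. The authors deposited a p-value and a q-value, used as they stand, and a test statistic, a score by which the log2 fold was divided, signs dropped, to give SE. The normal score that matches a deposited p-value was, at the median, 1.69 to 1.71 times the statistic in the light tables and 1.0 times in the mutant tables. The smallest p in the light tables was 5e-05.

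Members were named from RefSeq (TAIR10.1) by length within 3 bases and spacing within 30 bases (103 of 134 loci) or by place beside a matched neighbour (23 loci), which named 138 members; 23 members share a locus. The reference mitochondrial sequence differs from that of the tables, so positions are given separately. Near copies were counted in windows of 50 bases. Organ differences used a two-sided normal test with Benjamini-Hochberg adjustment. It was run on simulated folds drawn with the same SEs, which cannot show whether those SEs are right. Because the authors' values are 1 per group, p-values rest on the authors' model of the 3 samples.

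The members and gene lists were chosen with earlier results of these data known. Named were all called members where 12 or fewer were called, otherwise the 6 largest rises and falls at 1 FPKM or more; the 13 called in pifq hypocotyls are all given. The alternatives tried were a q-value under 0.01, filters on low FPKM, pseudocounts of 1 and 0.1, centred folds, members without a near copy, adjustment over each table alone and SE from the p-value. Python 3.11.15, pandas 2.3.3, numpy 2.4.6 and scipy 1.17.1 were used.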

Additional observations from a re-analysis of the deposited data

How the results depend on the processing

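The median log2 folds in pifq stayed below 0 but differed in size. In cotyledons the median of -0.85 became -0.10 and -0.30 over all members with pseudocounts of 1 and 0.1 FPKM, -0.26 against the dark value of the light tables, -0.75 at 1 FPKM or more and -0.80 over protein-coding members. In hypocotyls the median of -0.84 became -0.02, -0.08, -0.09, -0.82 and -0.66 under the same settings. The medians against the light tables' dark value cover other members, since those at 0 there drop out, and are not like-for-like. Most members were at or near 0, which draws the median over all members towards 0. In light, medians over all members were 0.00 with either pseudocount, and the cotyledon median of 0.43 at 1 h was 0.45 at 1 FPKM or more and 0.42 over protein-coding members. The other light medians lay within 0.14 of 0 under these settings, and their sign was not steady: that of cotyledons at 6 h was -0.06, and 0.02 over members without a near copy. Counts of calls moved too. With folds centred on the median nuclear gene and all p-values computed anew, 1 member rose in cotyledons at 1 h. At 6 h in cotyledons 3 rose and 1 fell, against 2 and 0 by the authors' q-value. In hypocotyls 1 rose and 1 fell at 1 h and again at 6 h, where 0 members had an authors' p-value under 0.05 at either time. The 1 that rose in cotyledons at 1 h was rrn5, with a p-value of 0.272 in the authors' deposited table. Its SE recovered from the deposited statistic was 0.0, so its p-value computed anew cannot be relied on. Under the same setting rrn26 and nad2 ATMG00285 were no longer called in pifq hypocotyls, at log2 folds of -1.17 and -2.55. With a q-value under 0.01, 1 member rose in cotyledons at 6 h, 2 fell in pifq cotyledons, and 1 rose and 4 fell in pifq hypocotyls. Among members without a near copy, 1 fell in pifq cotyledons, and 1 rose and 5 fell in pifq hypocotyls, from fewer members tested. ATMG00370, listed at 0 in pifq, gave no fold under any setting. With SE taken from the p-value, 1 member differed between organs at 6 h. Where another setting moved a count, the cause was not tested beyond the setting itself. No paired analysis was possible because the tables hold 1 value per group, and leaving out single replicates was not run for the same reason. Depth is unknown. The median SE of a member was 0.81 to 0.91 in light and 0.77 and 0.82 in pifq, and abundant members such as ORF107A had smaller ones.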
